A study of Homo sapiens with 6 samples.

Results

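Long arms of chromosomes 1, 17 and 20 and the short arm of chromosome 12 (1q, 17q, 20q and 12p) are the chromosome arms most often gained by human pluripotent cells in long culture. The regions described here are the ZIC2 regions with a midpoint on one of these 4 arms, in H1 human embryonic stem cells. Midpoints had to lie above 142.5 Mb on chromosome 1, below 35.8 Mb on chromosome 12, above 24.0 Mb on chromosome 17 or above 27.5 Mb on chromosome 20, on the genome build hg19. This gave 1876 of the 16077 distinct regions in the deposited lists, or 11.7%. They comprised 674 regions on 1q, 194 on 12p, 696 on 17q and 312 on 20q.

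ZIC2 was mapped by CUT&Tag, in which an antibody directs a transposase to cut and tag the DNA around the bound protein. The groups were ZNF263-knockout H1 cells made with Cas9, whose genotype the labels give as homogeneous (KO, 2 ZIC2 libraries), and wild-type H1 cells (WT, 2 ZIC2 libraries). Each genotype also had 1 normal rabbit IgG library, not analysed here. H1, also called WA01, is an established line, and neither passage nor karyotype is given for either genotype in the labels used here. The design text calls the knockout cells "1-10", and whether this is 1 clone is not stated there. Only 1 list of ZIC2 regions stands for each genotype, with no height, score or read count. Read depth is therefore unknown, no value has a replicate error, and absence from a list means only that no region was called, not that binding was measured as lost.

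ZIC2, a transcription factor with zinc fingers, is present in pluripotent and early neural cells, where it binds enhancers. ZNF263 belongs to the large group of DNA-binding zinc-finger proteins. In cultured pluripotent cells, extra copies of an arm can give a growth or survival advantage and then spread through the culture. Genes often named in this setting are NANOG, a pluripotency factor encoded on 12p, BCL2L1, an inhibitor of apoptosis encoded on 20q, BIRC5, a survival factor encoded on 17q, and MDM4, a p53 inhibitor encoded on 1q. The copy number of these arms was not measured in the deposited lists. Comparing each arm with the other arm of its own chromosome sets it beside regions from the same lists.

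Of the 1876 regions on the 4 arms, 363 were called only in KO, 996 only in WT and 517 in both. The KO list thus held 880 of them and the WT list 1513, or 58.2 KO regions per 100 WT regions. On the other arms of the same 4 chromosomes there were 382 KO-only, 1018 WT-only and 520 shared regions, or 58.6 KO regions per 100 WT regions. Both sets had fewer KO-only than WT-only regions, by nearly the same factor. Over all regions of the lists there were 55.8 KO regions per 100 WT regions. The 4 arms held 12.2% of the KO list (95% Clopper-Pearson interval 11.4 to 12.9) and 11.7% of the WT list (11.1 to 12.2). Every interval given here reflects counting error alone and takes regions to be independent, although close neighbours may not be.

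Among regions found in 1 list, the share called only in KO was 26.7% on the 4 arms (24.4 to 29.1, n = 1359), against 27.3% on their partner arms (25.0 to 29.7, n = 1400). Over the whole genome it was 26.0%. None of the 4 arms passed the test against its partner. Fisher's exact test (two-sided) was run on KO-only and WT-only numbers for every chromosome with regions on both arms, and its p-values were adjusted over those 18 chromosomes. It called 0 of 18 (0%), with 2 at an unadjusted p under 0.05 (chromosomes 11 and X), neither of which carries a member. This test compares 2 lists, not replicated genotypes. Arm boundaries of the other 14 chromosomes, and the band edges used further on, were entered from knowledge of the hg19 bands and not read from a file.

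Chromosome arm 1q had 133 KO-only and 356 WT-only regions, a KO-only share of 27.2% (23.3 to 31.4). Its partner 1p had 195 KO-only and 472 WT-only regions, a share of 29.2% (25.8 to 32.8). The odds ratio was 0.90 (exact conditional interval 0.691 to 1.18; Fisher's exact test, adjusted p = 0.741). Of the 4 pairs this one rests on the most regions. Its interval, which covers counting error alone, reaches up to odds 1.18 times as high on 1q.

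Chromosome arm 17q had 135 KO-only and 357 WT-only regions, a KO-only share of 27.4% (23.5 to 31.6). Its partner 17p had 53 KO-only and 123 WT-only regions, a share of 30.1% (23.4 to 37.5). The odds ratio was 0.88 (0.593 to 1.31; Fisher's exact test, adjusted p = 0.741). The shares differed by less than their intervals.

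Chromosome arm 20q had 62 KO-only and 170 WT-only regions, a KO-only share of 26.7% (21.1 to 32.9). Its partner 20p had 34 KO-only and 76 WT-only regions, a share of 30.9% (22.4 to 40.4). The odds ratio was 0.82 (0.483 to 1.39; Fisher's exact test, adjusted p = 0.741). Here 20q was 4.18 percentage points lower, the widest of the 4 gaps, and 8 of the 18 chromosomes had a wider one.

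Chromosome arm 12p had the fewest regions, with 33 KO-only and 113 WT-only, a KO-only share of 22.6% (16.1 to 30.3). Its partner 12q had 100 KO-only and 347 WT-only regions, a share of 22.4% (18.6 to 26.5). The odds ratio was 1.01 (0.626 to 1.61; Fisher's exact test, adjusted p = 1). Both arms of chromosome 12 stood below the genome-wide 26.0%, and among 36 arms ordered from high to low they ranked 31 and 33.

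**Figure D1:**
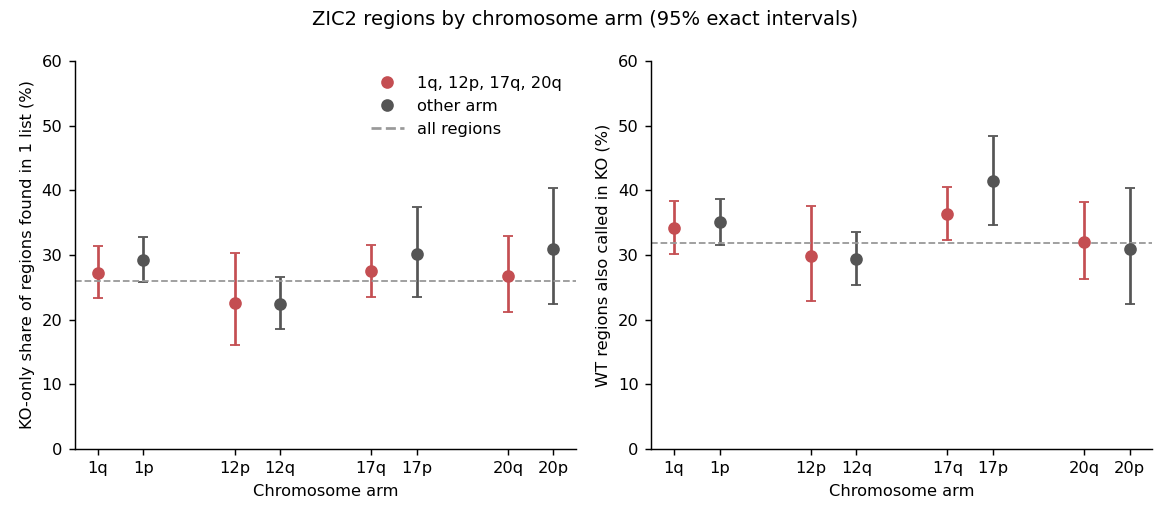
Percent of single-list regions called only in KO (left) and percent of WT regions also called in KO (right) for 1q, 12p, 17q and 20q (red), each with the other arm of its chromosome to its right (dark grey). Points are shares, bars are 95% exact binomial intervals and dashed lines are the values over all regions (26.0% and 31.8%); the intervals overlap within every pair.

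The share of WT regions called again in KO was 34.2% on the 4 arms (31.8 to 36.6, n = 1513) and 33.8% on the partner arms (31.4 to 36.2, n = 1538), against 31.8% over all WT regions. By arm it was 34.2% on 1q against 35.1% on 1p, 29.8% on 12p against 29.3% on 12q, and 32.0% on 20q against 30.9% on 20p. The pair that stood farthest apart was 17q with 36.4% (32.4 to 40.5) and 17p with 41.4% (34.7 to 48.4), an odds ratio of 0.81 (0.577 to 1.13; Fisher's exact test, adjusted p = 0.658). None of the 4 pairs passed the test, which called 1 of 18 chromosomes (5.56%). That one was chromosome 6, where 6q kept 23.0% and 6p kept 35.8% (Fisher's exact test, adjusted p = 0.00361). This share and the KO-only share use the same WT-only regions and are not separate evidence.

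Estimates common to the 4 chromosomes were computed after the single pairs had been seen. The Mantel-Haenszel odds ratio of the arm over its partner was 0.90 for KO-only against WT-only regions (95% interval 0.754 to 1.08). For WT regions kept in KO it was 0.94 (0.801 to 1.11), below 1 although the summed share was slightly higher on the 4 arms. Both intervals include 1.

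**Figure D2:**
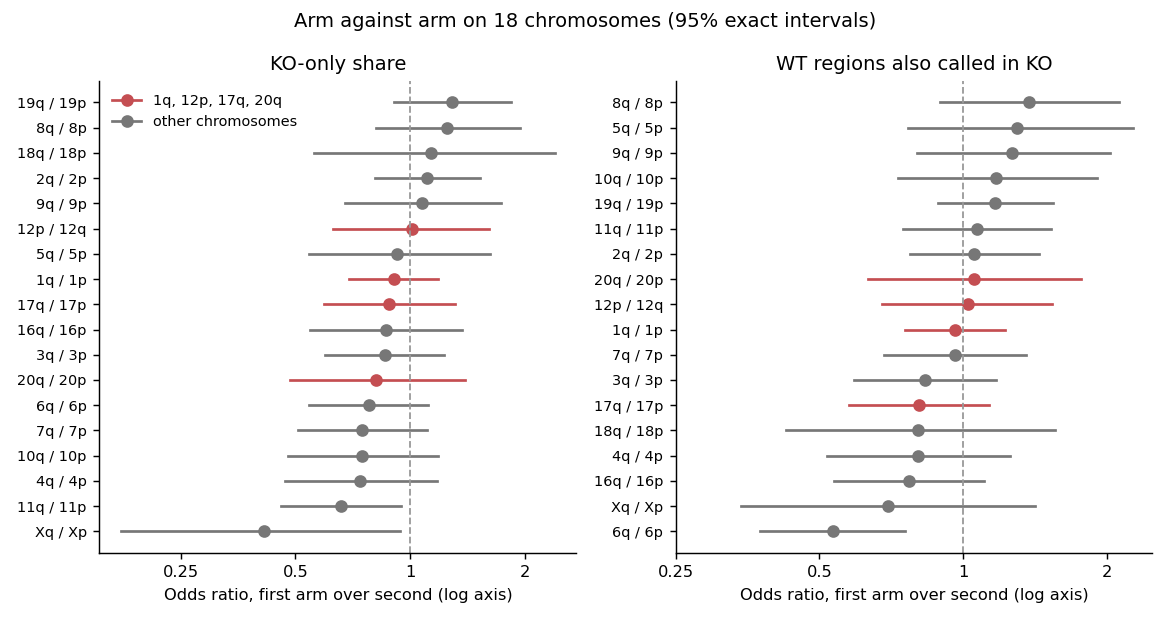
Odds ratio of the first-named arm over the second for the KO-only share (left) and for WT regions also called in KO (right) on 18 chromosomes, on a log axis, with 95% exact conditional intervals. The 4 pairs with 1q, 12p, 17q and 20q (red) lie within the span of the other 14 chromosomes (grey), and all 8 red intervals include 1, as with 0.90 for 1q and 0.81 for 17q.

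How thickly the arms were covered differed far more than their KO-only shares. Counted from the first to the last region of each arm, 17q carried 12.6 regions per Mb (95% Poisson interval 11.6 to 13.5), 20q 9.52 (8.49 to 10.6), 1q 6.40 (5.93 to 6.90) and 12p 5.94 (5.13 to 6.84). Only 1q and 12p had overlapping intervals. The partners carried 12.4 regions per Mb on 17p (10.95 to 13.998), 5.66 on 20p (4.77 to 6.66), 7.69 on 1p (7.20 to 8.20) and 6.25 on 12q (5.76 to 6.77). So 20q was denser than 20p and 1q was sparser than 1p beyond these counting intervals, while 17q and 12p overlapped with their partners. The KO list covered 127 kb of 1q, 31.1 kb of 12p, 136 kb of 17q and 54.4 kb of 20q. The WT list covered 188 kb of 1q, 52.7 kb of 12p, 199 kb of 17q and 81.3 kb of 20q. The KO length was thus 67.9% of the WT length on 1q (70.5% on 1p) and 58.95% on 12p (61.7% on 12q). It was 68.5% on 17q (75.2% on 17p) and 66.9% on 20q (70.6% on 20p). These differences were not tested. The whole KO list covered 2898 kb and the whole WT list 4346 kb.

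The edges of the arms hold no region near them. On chromosome 1 the last region below the boundary ended at 120602243 and the first above it began at 143913218, so no boundary between those points would change the members. On chromosome 12 the last region of 12p lay 2.97 Mb from the boundary (a shared region of 250 bp) and the first of 12q lay 3.34 Mb from it (WT-only, 696 bp). On chromosome 17 the distances were 1.62 Mb on 17q (shared, 429 bp) and 2.64 Mb on 17p (shared, 833 bp), and on chromosome 20 they were 2.61 Mb on 20q (WT-only, 189 bp) and 1.93 Mb on 20p (KO-only, 296 bp).

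Along the arms, regions came in dense stretches and near-empty ones. In windows of 5 Mb, WT-only regions were the more numerous in 47 of 48 windows, and the other window, from 190 to 195 Mb on 1q, had 2 of each. Among the 28 windows with at least 20 regions found in 1 list, the KO-only share had a median of 26.6%. It was highest from 150 to 155 Mb on 1q, with 20 KO-only and 28 WT-only regions (41.7%, 27.6 to 56.8), and next from 25 to 30 Mb on 17q, with 18 and 28 (39.1%, 25.1 to 54.6). Among these 28 windows, the same 2 also kept the largest part of their WT regions, 48.1% each. Nearly as much was kept from 40 to 45 Mb (47.7%) and 45 to 50 Mb (47.5%) on 17q. There the KO-only shares were 27.4% and 26.2%. Outside the 28, the window from 245 to 250 Mb on 1q kept 50.0%. The KO-only share was lowest in the outermost 5 Mb of 12p, with 3 KO-only and 27 WT-only regions (10.0%, 2.11 to 26.5). Next came 35 to 40 Mb on 20q, with 3 and 24 (11.1%, 2.35 to 29.2). Windows were ranked after their values were seen, and no window was tested.

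**Figure D3:**
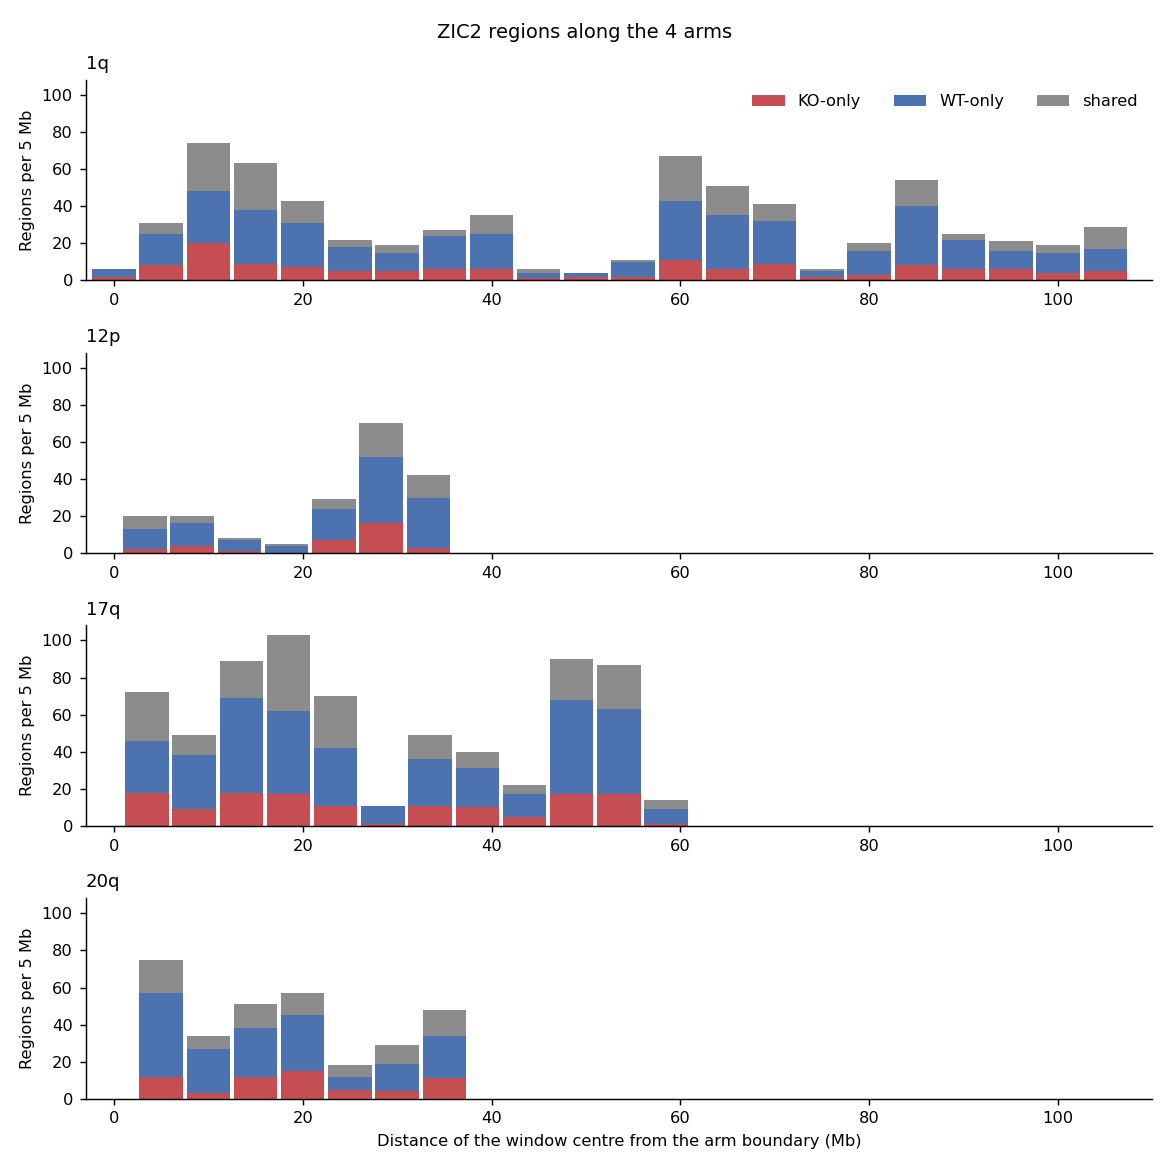
Number of ZIC2 regions per 5 Mb window on 1q, 12p, 17q and 20q against the distance of the window centre from the arm boundary in Mb, stacked as KO-only (red), WT-only (blue) and shared (grey). WT-only regions outnumber KO-only ones in 47 of 48 windows, and by 8846 to 3111 over all regions of the lists. End windows can be partly outside the arm or the chromosome.

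At 1 Mb, the densest windows were 27 to 28 Mb on 17q with 36 regions (5 KO-only, 16 WT-only and 15 shared), 156 to 157 Mb on 1q with 34 (5, 13 and 16 in the same order) and 6 to 7 Mb on 12p with 34 (10, 13 and 11). On 20q it was 44 to 45 Mb with 25 (5, 13 and 7). KO-only regions outnumbered WT-only ones in 15 of 213 windows of 1 Mb, by at most 3 regions. No such count was made on other arms, and WT-only regions were the more numerous over the whole genome. The window from 6 to 7 Mb on 12p held 10 of the 33 KO-only regions of that arm. The longest stretch without a region lay on 1q, 5.74 Mb from 186859889 to 192597305.

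Neighbours were often close to each other. The nearest other region lay within 5 kb for 26.9% of regions on 1q, 25.8% on 12p, 32.8% on 17q and 27.9% on 20q, against 22.2% on 1p, 27.7% on 12q, 29.7% on 17p and 25.7% on 20p. No class was the closest on every arm, but on each of the 4 arms KO-only regions had such a neighbour more often than WT-only ones. On 17q a neighbour within 5 kb was found for 39.3% of KO-only, 29.4% of WT-only and 34.3% of shared regions. On 1q these shares were 28.6%, 21.3% and 36.2% in the same order, on 12p 30.3%, 25.7% and 22.9%, and on 20q 30.6%, 28.8% and 23.8%. Among partner arms, such a neighbour was found for 23.1% of KO-only and 22.5% of WT-only regions on 1p. These shares were 30.0% and 25.6% on 12q and 30.2% and 28.5% on 17p. Only on 20p was the share lower for KO-only regions, 11.8% (4 of 34) against 30.3% for WT-only regions. None of these differences was tested.

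Runs of neighbouring regions of the same class were short for KO-only and longer for WT-only regions, which were more numerous. On 12p, 4 successive KO-only regions lay within 5.79 kb, on chromosome 12 from 6480266 to 6480672 (407 bp), 6484687 to 6484851 (165 bp), 6485125 to 6485360 (236 bp) and 6485646 to 6486055 (410 bp). The nearest regions on either side were a shared one 34.0 kb away and a WT-only one 93.8 kb away. On 1q the longest KO-only run also had 4 regions, spread over 217 kb from 227975650 to 228192244. The longest WT-only runs had 11 regions on 17q, from 37310628 to 37730491, 11 on 20q, from 35723979 to 37354810, 10 on 12p, from 14093956 to 16603694, and 9 on 1q, from 156890247 to 159870408. All were picked after their values were seen. Genes at these places are not named, since the gene table at hand is of another build.

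Bands inside the arms that recur as the smallest shared gains in the field were counted separately. In 20q11.21, the band with BCL2L1, a stretch of 2.7 Mb, there were 6 KO-only, 22 WT-only and 8 shared regions. The KO-only share was 21.4% there (8.30 to 41.0), against 27.5% on the rest of 20q (21.4 to 34.1). In 1q32.1, the band with MDM4, from 198.7 to 207.2 Mb, there were 17 KO-only, 53 WT-only and 35 shared regions. The KO-only share was 24.3% (14.8 to 36.0), against 27.7% on the rest of 1q (23.5 to 32.2). In 17q25, with BIRC5, from 70.9 Mb to the end of the chromosome, 32 KO-only, 102 WT-only and 51 shared regions were called. That KO-only share was 23.9% (16.9 to 32.0), against 28.8% on the rest of 17q (24.1 to 33.8). These 3 bands had lower shares than the rest of their arms, by less than the intervals.

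Band 12p13.31, which carries NANOG and spans 5.4 to 10.1 Mb, went the other way. It held 70 of the 194 regions of 12p, with 17 KO-only, 35 WT-only and 18 shared. Its KO-only share was 32.7% (20.3 to 47.1), against 17.02% on the rest of 12p (10.1 to 26.2), and the intervals overlap. Of its 17 KO-only regions, 10 lay in the single window from 6 to 7 Mb, among them the run of 4 within 5.79 kb. The regions of that run are close neighbours and may not be independent of each other. The KO list also held 34.0% of the WT regions of the band (21.5 to 48.3) and 27.8% of those on the rest of the arm (19.6 to 37.2). Bands were described by counts only, and no difference between a band and its arm was tested. All 4 bands were denser than their arms, with 12.4 regions per Mb in 1q32.1, 14.9 in 12p13.31, 17.97 in 17q25 and 13.33 in 20q11.21. Band lengths run between band edges, while arm lengths run from the first to the last region. Dense stretches also lay outside the bands on 17q and 1q. The 5 Mb window from 40 to 45 Mb on 17q held 103 regions, and that from 150 to 155 Mb on 1q held 74.

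Region width followed the class far more than the arm. All 517 shared regions of the 4 arms had the same start and end in both lists, so their width is 1 common value and not a measurement of each genotype. The median width on the 4 arms was 171 bp for KO-only regions, 189 bp for WT-only and 448 bp for shared ones. On the partner arms it was 174.5 bp, 190.0 bp and 453.5 bp in the same order. By arm, KO-only medians were 167 bp on 1q, 175 bp on 12p, 161 bp on 17q and 188 bp on 20q. WT-only medians were 191 bp on 1q, 164 bp on 12p, 203 bp on 17q and 183.5 bp on 20q. Shared medians were 449 bp on 1q, 417.5 bp on 12p, 470.5 bp on 17q and 376 bp on 20q.

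The narrowest width in the lists, 150 bp, was held by 161 of the 363 KO-only regions on the 4 arms (44.4%, 39.2 to 49.6), 372 of the 996 WT-only regions (37.3%, 34.3 to 40.4) and 0 of the 517 shared ones (0%, 0 to 0.711). On the partner arms these shares were 42.9%, 36.1% and 0.385%. In each width class the 4 arms and their partners lay close together. The KO-only share was 30.2% against 30.8% at 150 bp, 23.3% against 22.7% above 150 and up to 300 bp, 25.8% against 29.0% above 300 and up to 600 bp, and 26.5% against 26.0% above 600 bp, with the partner arms second each time. The share of WT regions called again in KO was 27.4% on the 4 arms and 24.4% on the partners above 150 and up to 300 bp. It was 51.7% and 52.0% above 300 and up to 600 bp, and 72.3% and 75.3% above 600 bp.

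**Figure D4:**
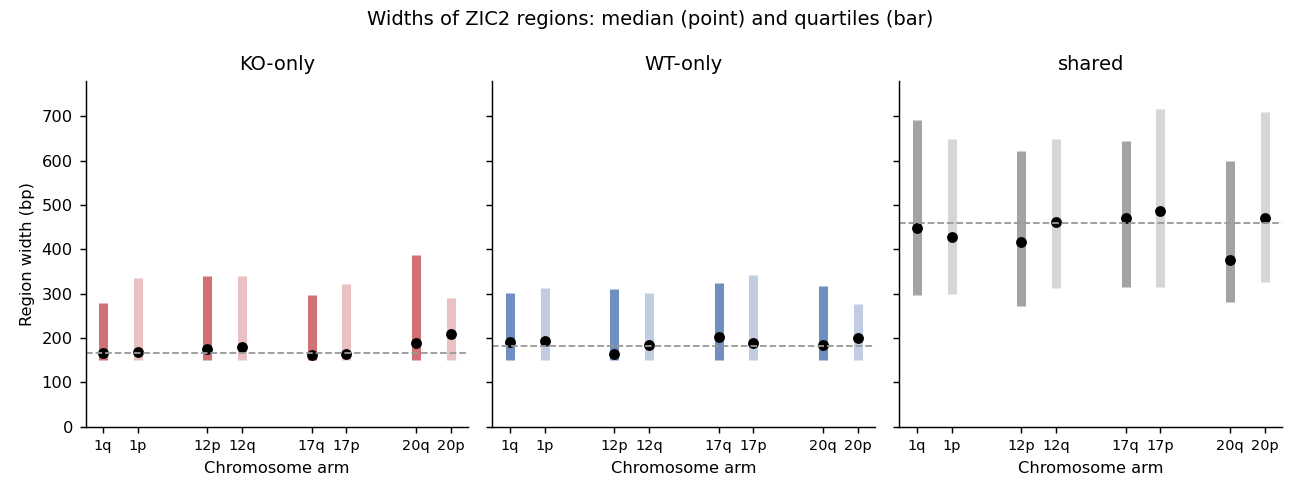
Width in bp of KO-only (left), WT-only (middle) and shared (right) regions on 1q, 12p, 17q and 20q (dark bars), each with the other arm of its chromosome to its right (pale bars). Points are medians, bars run from the lower to the upper quartile and dashed lines are medians over all regions; shared regions are wider on every arm, with medians of 376 to 470.5 bp on 1q, 12p, 17q and 20q.

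The widest regions of each class are given by position, with their genes not analysed here. The widest KO-only regions were on 1q from 147070629 to 147071842 (1214 bp) and 204048904 to 204050063 (1160 bp). On 17q they were from 73520771 to 73521832 (1062 bp) and 42385137 to 42386058 (922 bp). On 20q they were from 61605334 to 61606189 (856 bp) and 44393591 to 44394325 (735 bp), and on 12p from 860338 to 860931 (594 bp) and 6832925 to 6833472 (548 bp). None of the 33 KO-only regions of 12p or the 62 of 20q reached 1000 bp. Over the whole genome only 25 of 3111 KO-only regions did, so none would stand out at these numbers.

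The widest WT-only regions were on 1q from 156023634 to 156024899 (1266 bp) and 203830441 to 203831263 (823 bp). On 12p they were from 16034927 to 16035948 (1022 bp) and 14093956 to 14094958 (1003 bp), the second of which opens the long WT-only run of that arm. On 17q they were from 57642591 to 57643569 (979 bp) and 38136176 to 38137139 (964 bp), and on 20q from 62184194 to 62185098 (905 bp) and 36025001 to 36025726 (726 bp).

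The widest shared regions reached further. On 12p they ran from 6960551 to 6962170 (1620 bp) and from 10765704 to 10766790 (1087 bp). On 1q they ran from 151253756 to 151255028 (1273 bp) and 204678936 to 204680168 (1233 bp), the second inside 1q32.1. On 17q they ran from 78800892 to 78802098 (1207 bp), inside 17q25, and from 27359073 to 27360239 (1167 bp). On 20q they ran from 34203431 to 34204577 (1147 bp) and 44600374 to 44601453 (1080 bp). Of the regions of at least 1000 bp on the 4 arms, 3 were KO-only, 3 WT-only and 20 shared. In the same order there were 1, 7 and 29 on the partner arms and 25, 31 and 177 over all regions.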

How the data were processed

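The deposited files are 2 lists of ZIC2 regions, 1 per genotype, with 3 columns (chromosome, start and end) and no header. The submitters' processing notes name Bowtie2, Picard and hg19. How the authors called the deposited regions, used the IgG libraries and combined the replicates is stated in no source used here. Regions that overlapped by at least 1 bp were counted as shared. Arms were taken from the midpoint of each region, with boundaries for chromosomes outside the 4, and band edges, entered from knowledge of the hg19 cytogenetic bands and not checked against a file. Each arm was compared with its partner by Fisher's exact test with Benjamini-Hochberg adjustment over 18 chromosomes, at a threshold of 0.05. The routines were run on simulated independent regions, with no difference between arms or with a difference far larger than those observed for the 4 pairs. Those runs do not show whether a difference of the observed size would be called. Shares have exact Clopper-Pearson intervals and densities exact Poisson intervals, both at 95%. Python 3.11.15, numpy 2.4.6, pandas 2.3.3, scipy 1.17.1, statsmodels 0.14.6 and matplotlib 3.10.9 were used. Coordinates are hg19, counted from 1. The arms, bands and tests were chosen with earlier results of these data known. The 2 widest regions of each class on each arm were named by rule, with anything else named chosen after its values were seen. Genes, promoters and sequences were not analysed here for want of a genome of the same build.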

Additional observations from a re-analysis of the deposited data

Results flagged for a closer look

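Contigs assigned to chromosome 1 or 17 but to no arm held 7 ZIC2 regions, of which 1 was KO-only, 3 were WT-only and 3 were shared. They are listed because they lie outside every comparison of arms. On 17_gl000205_random there were 5 of them, with 1 KO-only, 1 WT-only and 3 shared.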

How the results depend on the processing

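No setting brought any of the 4 arms past the test of the KO-only share (36 combinations of arm and setting, Fisher's exact test, lowest adjusted p = 0.482). The same held for WT regions kept in KO (36, Fisher's exact test, lowest adjusted p = 0.0622). This last value is for 17q against all arms outside the 4, a setting adjusted over the 4 arms only. Against a partner arm the lowest adjusted p was 0.530 (Fisher's exact test, 17q without 5 Mb beside the boundary). In each set, 4 combinations use 50% reciprocal overlap and could only repeat the reported values, since shared regions have identical edges. Signs that turned, for a cause that was not tested, were those of differences that pass no test. For the KO-only share, set against all arms outside the 4, the difference in percentage points was 1.29 for 1q, -3.30 for 12p, 1.53 for 17q and 0.82 for 20q. It was -1.74 for 12p at or above the median width, -1.42 with regions within 1 kb joined and -4.29 without its window from 5 to 10 Mb, and 2.94 for 17q without 5 Mb at each chromosome end. For WT regions kept, against all arms outside the 4, it was 2.79 for 1q, -1.59 for 12p and 4.96 for 17q (unadjusted p = 0.0155, the only one under 0.05 by Fisher's exact test). For 12p it was -3.55 with edges within 1 kb counted as shared, -0.142 without the chromosome ends, -0.88 without 5 Mb beside the boundary and -1.29 without its richest window. At or above the median width it was 0.70 for 1q and -1.25 for 20q. That width limit also gave 70.4 KO regions per 100 WT regions on 1q (58.8 over all widths), 63.9 on 12p (50.3), 71.0 on 17q (60.4) and 70.4 on 20q (56.8). Without regions of 150 bp, by construction, medians rose to 269 bp (1q), 301.5 bp (12p), 282 bp (17q) and 309 bp (20q) for KO-only and 265 bp, 293 bp, 281.5 bp and 269 bp for WT-only regions. Counted by whole windows, 17q had 11.6 regions per Mb. No paired analysis was possible because 1 list stands for both replicates of a genotype, so no replicate could be left out either, and the counts near gene starts were not run. Depth is unknown, so weak regions cannot be told apart from uncalled ones.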
